A study of Mus musculus with 20 samples.

Results

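The genes described here are 9 molecules by which blood leukocytes attach to and cross the wall of a vessel: E-selectin (Sele), P-selectin (Selp), the selectin ligand PSGL-1 (Selplg), ICAM-1 (Icam1), VCAM-1 (Vcam1) and the integrin chains αL (Itgal), αM (Itgam), β2 (Itgb2) and α4 (Itga4). They were found by symbol, and all 9 are among the 25219 genes of the deposited table. RNA of whole inguinal white adipose tissue (iWAT) and brown adipose tissue (BAT) came from male mice. Each depot has 5 Control and 5 Ai-α4KO libraries. Ai-α4KO mice, on a mixed C57Bl/6 background, carried floxed α4 alleles and the Adiponectin-CreERT2 transgene, a recombinase that the adiponectin promoter drives in adipocytes and that tamoxifen activates. Control mice, which the labels call wild type, carried the floxed alleles without the transgene. All mice received 5 tamoxifen injections over 6 days from 2 months of age, and tissue was taken 1 week after recombination, so the injections are shared by both genotypes. The α4 that was deleted is the phosphatase-binding protein encoded by Igbp1 and is a different protein from integrin α4, which Itga4 encodes.

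Leukocytes leave the blood in steps. Selectins on the vessel wall bind sugar-bearing ligands such as PSGL-1 on the leukocyte and let it roll. Chemokine signals then switch integrins on the leukocyte to a high-affinity state, in which αLβ2 (LFA-1) and αMβ2 (Mac-1) bind ICAM-1, and α4β1 (VLA-4) binds VCAM-1, so that the cell stops and crosses. Endothelium makes little E-selectin until inflammatory cytokines act on it, and adipose tissue takes up monocytes and neutrophils by these steps when it is inflamed.

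Libraries held between 24023371 and 50384446 counts. Igbp1 was at 57.5 to 76.6 CPM (the reads of a gene relative to the TMM-scaled size of the library) in Control iWAT and 10.1 to 11.1 in Ai-α4KO iWAT, and at 85.4 to 105 and 13.7 to 25.2 in the corresponding BAT libraries, so every library matched its genotype label. The brown adipocyte markers Ucp1, Cidea and Ppargc1a summed to 7138 to 10992 CPM in Control BAT and 1171 to 2569.9 in Ai-α4KO BAT, against 85.5 to 793 in Control iWAT. Some libraries stood apart. Control iWAT 1 and 4 held 385 and 154 CPM of 5 B cell markers, against at most 6.86 in the other Control iWAT libraries, and 220.1 and 238 CPM of 6 T cell markers, against at most 10.7. The same libraries held 211 and 150.5 CPM of 4 lymph node stroma markers. In sum 6 skeletal muscle markers came to 797 to 8495 CPM in Control BAT and 11682 to 37749.9 in Ai-α4KO BAT, where libraries 3, 4 and 5 were highest. In iWAT they reached 6292 CPM in Control 4 and 4852 in Ai-α4KO 1, against at most 161 in the other libraries. Ai-α4KO iWAT 1 was also the lowest mutant iWAT library for Sele, Selp, Vcam1, Itga4, the leukocyte marker Ptprc and, narrowly, Itgam, and the highest for Itgb2. Leaving out either of these 2 libraries alone changed no genotype call of a member in iWAT, except Vcam1 without Control 4. The counts of members below were therefore repeated without Control iWAT 1 and 4, and without Ai-α4KO BAT 3, 4 and 5.

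Loss of α4 in adipocytes was accompanied by higher RNA of nearly the whole set. In Ai-α4KO iWAT 8 of the 9 genes were higher than in Control, and in Ai-α4KO BAT again 8 of 9, at an adjusted p below 0.01 and at least 2-fold in edgeR's quasi-likelihood test over all genes. Itgal was the exception in iWAT and Sele in BAT, and none was lower. Of all genes tested, 11.3% were called higher and 10.7% lower in iWAT, and 18.2% and 13.3% in BAT. The median log2 fold change of the 9 genes was 1.83 in iWAT, against 0.01 over all genes tested, and 2.84 in BAT, against −0.03. Every Ai-α4KO library lay above every Control library for 6 of the 9 genes in iWAT and 8 in BAT, a pattern that 20.7% and 24.7% of all genes showed. Without Control iWAT 1 and 4 the count in iWAT was again 8, with Itgal called and Sele not. Without Ai-α4KO BAT 3, 4 and 5 it was again 8 in BAT.

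**Figure D1:**
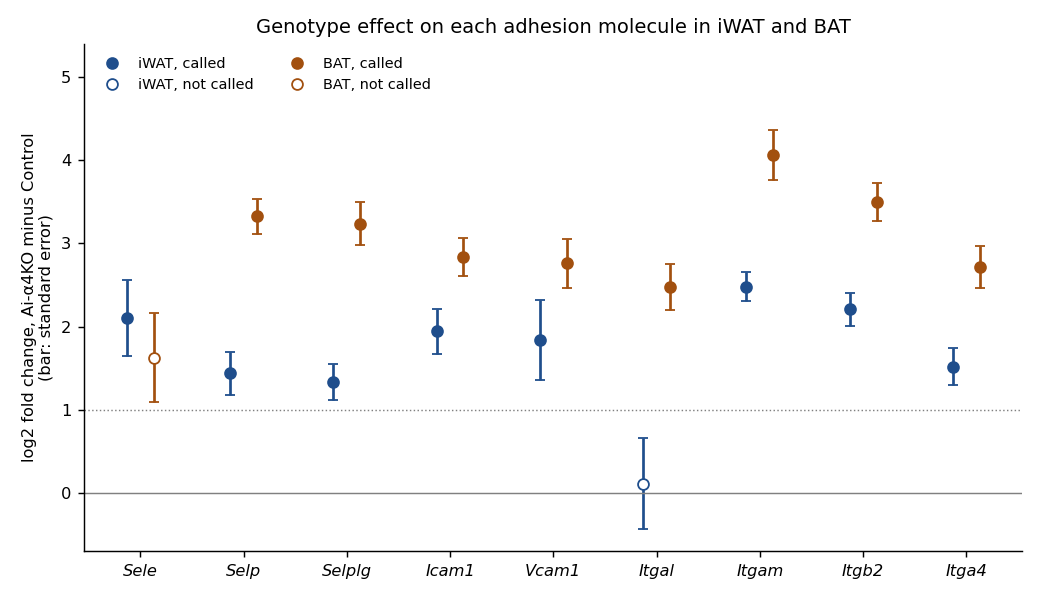
Log2 fold change (Ai-α4KO minus Control, vertical axis) of the 9 adhesion genes in iWAT (blue) and BAT (brown) with standard errors from edgeR, 5 libraries per group. Filled points passed the adjusted p and 2-fold limits, the dotted line marks 2-fold, and open points are Itgal in iWAT at 0.11 and Sele in BAT at 1.62.

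Markers of the cells that bear these molecules differed between the genotypes as well. Pan-leukocyte markers (Ptprc, Laptm5, Coro1a and Cd53) summed to 239.7 to 787 CPM in Control iWAT and 1104 to 1602 in Ai-α4KO iWAT, with 3 of 4 called higher. In BAT the sums were 42.01 to 78.2 and 592 to 982, with 4 of 4 called higher. Macrophage markers rose for 6 of 7 genes in iWAT, with sums of 1093 to 1836 CPM in Control and 6927 to 9329 in Ai-α4KO libraries, and for 7 of 7 in BAT, with 228 to 514 and 4073 to 6693. Neutrophil markers rose for 4 of 6 genes in iWAT (19.6 to 94.4 CPM in Control, against 146 to 494) and 6 of 6 in BAT (12.2 to 35.9 CPM in Control, against 201 to 364). Endothelial markers (Cdh5, Tie1, Tek, Erg and Robo4) went the other way, with 3 of 5 called lower in iWAT (206 to 281 CPM in Control, against 126 to 150.0) and 5 of 5 in BAT (424 to 649 CPM in Control, against 167 to 199.6). Of 6 adipocyte markers 5 were lower in each tissue. Of 6 T cell markers none was called in iWAT and 4 rose in BAT, of the B cell markers 1 of 4 tested fell in iWAT and 1 of 3 rose in BAT, and no lymph node stroma marker was called. Of 6 skeletal muscle markers none was called in iWAT and 4 rose in BAT, and their part in the results below was tested only by leaving out libraries. No marker of the pan-leukocyte, macrophage, neutrophil, endothelial and adipocyte lists was at or under 3 counts throughout a group. These are bulk tissues, in which more cells of a type and more RNA per cell cannot be told apart.

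The endothelial selectins were first compared between genotypes. Both were higher in Ai-α4KO tissue, Selp in both depots and Sele past the threshold in iWAT. Sele and Selp are neighbours on chromosome 1 of mm10, at 164048234 to 164057677 and 164115264 to 164150026, both on the forward strand. The 250 bases before each annotated start are shown because both genes were higher in the mutant tissue and because the heptamer TGANTCA, the AP-1 motif, lies in each. RefSeq gives them for GRCm38.p6 as chr1:164047984-164048233 and chr1:164115014-164115263. Capitals mark the matches to the AP-1 motif and, in Sele, to TATAAA.
Sele: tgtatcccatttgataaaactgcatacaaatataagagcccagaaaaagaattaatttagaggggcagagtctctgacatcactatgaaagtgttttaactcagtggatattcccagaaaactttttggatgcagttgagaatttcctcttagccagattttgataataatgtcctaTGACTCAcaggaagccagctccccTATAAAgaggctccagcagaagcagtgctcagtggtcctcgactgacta
Selp: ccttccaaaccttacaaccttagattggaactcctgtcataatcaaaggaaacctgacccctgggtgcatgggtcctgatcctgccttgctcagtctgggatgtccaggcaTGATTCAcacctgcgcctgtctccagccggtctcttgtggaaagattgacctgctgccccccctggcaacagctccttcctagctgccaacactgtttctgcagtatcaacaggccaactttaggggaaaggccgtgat
Counted back from the start, the AP-1 match lies at −73 to −67 in Sele (TGACTCA) and at −139 to −133 in Selp (TGATTCA). The motif TGANTCA reads as itself on the opposite strand, so each is a single place. The TATAAA match of Sele lies at −49 to −44. Of 32851 upstream regions of the same length, 6.75% hold the AP-1 motif and 12.4% hold TATAAA on either strand. The upstream regions of Icam1, Itgam and Itga4 held neither, and those of Selplg, Vcam1, Itgal and Itgb2 were not searched. The PU.1 motif GAGGAAGT, found in 2.44% of all regions, and a strict form of the NF-kappaB consensus, found in 3.90%, had no match in the 5 regions searched, and near matches were not counted. A match describes letters only, and factor binding was not measured.

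E-selectin had the lowest median level per transcript length of the 9 genes in each group. In Control iWAT 1 to 5 Sele was at 0.445, 0.715, 1.16, 0.752 and 1.61 CPM, and in Ai-α4KO iWAT 1 to 5 at 1.34, 2.89, 4.12, 5.03 and 6.77 CPM. Ai-α4KO library 1, the lowest of its group, fell inside the Control range, and the other 4 lay above it. The change in iWAT was 4.29-fold (log2 fold change 2.10, standard error 0.46, adjusted p = 0.00242, edgeR). In BAT Sele was at 0.410, 0.665, 1.04, 2.47 and 0.398 CPM in Control and 3.28, 3.77, 0.889, 4.67 and 3.37 CPM in Ai-α4KO libraries. The groups overlapped through Control BAT 4, which was above the other Controls, and Ai-α4KO BAT 3, which was below the rest of its group. The fold change in BAT was 3.08 and missed the adjusted p of 0.01 (log2 fold change 1.62, standard error 0.53, adjusted p = 0.0188, edgeR). It passed without Control BAT 4 (log2 fold change 2.30, adjusted p = 0.00172) and without Ai-α4KO BAT 3 (1.85, adjusted p = 0.00688). In iWAT the call was lost without Control iWAT 1 and 4 (1.70, adjusted p = 0.0188). These levels rest on few reads, 9 to 70 counts per Control BAT library and 21 to 145 per Ai-α4KO BAT library.

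P-selectin, which endothelium and platelets store in granules and bring to the surface on activation, had the clearer change. In Control iWAT Selp was at 4.003, 5.66, 3.53, 2.26 and 4.02 CPM, and in Ai-α4KO iWAT at 6.51, 12.4, 13.1, 10.5 and 10.5 CPM. The groups did not overlap, and the change was 2.71-fold (log2 fold change 1.44, standard error 0.26, adjusted p = 6.71e-04, edgeR). In BAT Selp was at 0.774, 1.13, 1.36, 1.13 and 0.836 CPM in Control and 10.8, 13.6, 11.3, 9.91 and 8.54 CPM in Ai-α4KO libraries. The highest Control BAT library was far below the lowest Ai-α4KO library, a 10.04-fold change (log2 fold change 3.33, standard error 0.21, adjusted p = 1.48e-07, edgeR). The platelet chemokine Pf4 was higher with Selp (log2 fold change 1.93 in iWAT and 3.30 in BAT, adjusted p = 2.26e-05 and 1.36e-06, edgeR). It carried most of the sum of 4 platelet markers, while Itga2b was at −0.21 and 0.54 and was not called, and Gp9 and Gp1ba were not tested, with group means of at most 0.219 CPM. The markers summed to 45.5 to 66.2 CPM in Control and 151 to 307 in Ai-α4KO iWAT and to 10.8 to 23.2 and 95.4 to 199 in BAT, and Gp1ba was at no more than 3 counts in every Control library. Their part in the Selp result was not tested.

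PSGL-1, the ligand that both of these selectins bind, is carried by leukocytes. Selplg lies on chromosome 5 (113817798 to 113830501, reverse strand). In Control iWAT it was at 53.1, 22.2, 27.5, 37.5 and 22.9 CPM, with the lymph node marker libraries 1 and 4 highest, and in Ai-α4KO iWAT at 81.4, 81.2, 88.9, 76.7 and 85.6 CPM, a narrow range entirely above Control. The change was 2.52-fold (log2 fold change 1.33, standard error 0.22, adjusted p = 4.27e-04, edgeR). In BAT Selplg was at 4.55, 4.07, 3.22, 8.57 and 3.90 CPM in Control and 49.5, 52.8, 43.2, 35.0 and 55.8 CPM in Ai-α4KO libraries. The groups were again apart, by 9.44-fold (log2 fold change 3.24, standard error 0.26, adjusted p = 7.59e-07, edgeR).

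The immunoglobulin-family ligands ICAM-1 and VCAM-1, which cytokines raise on endothelium and which other cells also make, were higher in both mutant depots. Icam1 (chromosome 9, 21015960 to 21028796, forward) was at 23.2, 9.20, 8.75, 15.4 and 8.41 CPM in Control iWAT and 47.5, 51.1, 46.2, 56.8 and 49.8 CPM in Ai-α4KO iWAT. Control libraries 1 and 4 were again the highest of their group, and all Ai-α4KO libraries lay above them, with a 3.84-fold change (log2 fold change 1.94, standard error 0.27, adjusted p = 1.33e-04, edgeR). In BAT Icam1 was at 5.14, 5.63, 3.58, 5.11 and 7.41 CPM in Control and 38.1, 45.4, 24.4, 38.6 and 51.3 CPM in Ai-α4KO libraries. The groups were well apart, by 7.17-fold (log2 fold change 2.84, standard error 0.23, adjusted p = 7.67e-07, edgeR).

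Vcam1 (chromosome 3, 116110020 to 116129688, reverse) was spread widely among the mutant iWAT libraries. It was at 71.1, 29.4, 24.3, 25.2 and 13.8 CPM in Control iWAT and 62.1, 230.4, 148, 80.9 and 66.0 CPM in Ai-α4KO iWAT. Control iWAT 1 lay above Ai-α4KO 1 and 5, so the groups overlapped, and the 3.57-fold change was the least secure of the calls in iWAT (log2 fold change 1.83, standard error 0.48, adjusted p = 0.00756, edgeR). It missed the threshold with upper-quartile normalization (adjusted p = 0.0103) and without any single one of Control iWAT 2, 3, 4 or 5 or Ai-α4KO iWAT 2 or 3 (adjusted p from 0.0166 to 0.0213), and it passed without Control iWAT 1 and 4 (log2 fold change 2.30, adjusted p = 0.00353). In BAT Vcam1 was at 12.1, 19.01, 15.05, 13.4 and 14.1 CPM in Control and 90.9, 181, 91.2, 48.8 and 98.0 CPM in Ai-α4KO libraries. There the groups did not overlap, and the change was 6.77-fold (log2 fold change 2.76, standard error 0.29, adjusted p = 6.44e-06, edgeR).

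**Figure D2:**
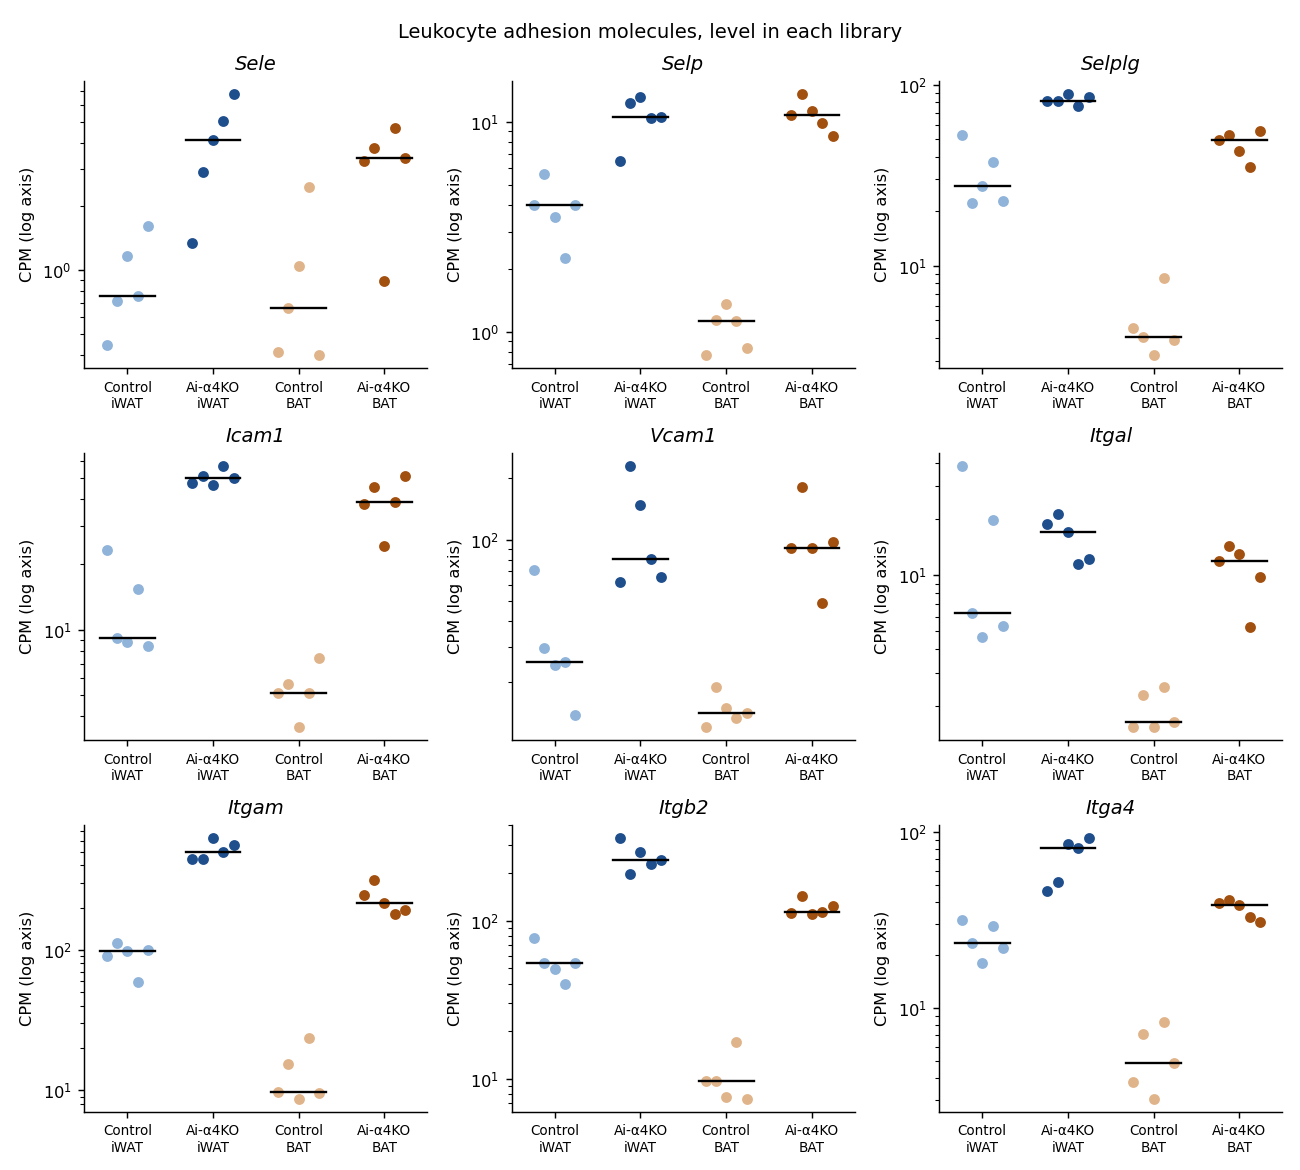
CPM of each adhesion gene (vertical log axis, scaled by TMM over all 20 libraries) in every library of the 4 groups; points run from library 1 to 5 in each group and the bar is the median. In BAT the genotypes overlap for Sele alone, and in iWAT for Sele, Vcam1 and Itgal, where Control iWAT 1 reached 38.4 CPM of Itgal.

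The leukocyte integrins gave both the largest and the smallest change. Itgam, the αM chain of Mac-1 on neutrophils, monocytes and macrophages (chromosome 7, 128062640 to 128118491, forward), was at 90.2, 111, 98.3, 59.0 and 99.8 CPM in Control iWAT and 441, 443, 629, 501 and 554 CPM in Ai-α4KO iWAT. Every mutant library was well above every Control library, by 5.58-fold over the groups (log2 fold change 2.48, standard error 0.18, adjusted p = 3.18e-06, edgeR). In BAT Itgam was at 9.79, 15.5, 8.70, 23.6 and 9.52 CPM in Control and 246, 314, 216, 180.2 and 191 CPM in Ai-α4KO libraries. This 16.7-fold difference was the largest among the 9 genes in either tissue (log2 fold change 4.06, standard error 0.30, adjusted p = 4.05e-07, edgeR).

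Itgb2, the β2 chain shared by LFA-1 and Mac-1 and required for both at the cell surface (chromosome 10, 77530348 to 77565674, forward), followed it. In Control iWAT it was at 77.4, 54.1, 49.7, 39.8 and 54.0 CPM and in Ai-α4KO iWAT at 335, 198, 272, 227 and 242 CPM, without overlap (4.61-fold, log2 fold change 2.21, standard error 0.20, adjusted p = 7.67e-06, edgeR). In BAT it was at 9.74, 9.66, 7.70, 17.2 and 7.49 CPM in Control and 111, 142, 110.1, 113 and 124 CPM in Ai-α4KO libraries. The change there was 11.3-fold, again without overlap (log2 fold change 3.50, standard error 0.22, adjusted p = 1.60e-07, edgeR).

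Itgal, the αL chain of LFA-1 that lymphocytes carry at high levels (chromosome 7, 127296260 to 127335137, forward), was higher in mutant BAT and was not called in iWAT. In BAT it was at 1.55, 2.27, 1.54, 2.504 and 1.63 CPM in Control and 11.8, 14.3, 12.96, 5.28 and 9.80 CPM in Ai-α4KO libraries, without overlap (5.55-fold, log2 fold change 2.47, standard error 0.28, adjusted p = 1.08e-05, edgeR). In iWAT it was at 38.4, 6.28, 4.66, 19.6 and 5.33 CPM in Control and 18.8, 21.3, 17.0, 11.5 and 12.2 CPM in Ai-α4KO libraries. Control libraries 1 and 4 stood among or above the mutant libraries, while Control libraries 2, 3 and 5 were below all of them. The change in iWAT was not called (log2 fold change 0.11, standard error 0.55, adjusted p = 0.879, edgeR). Libraries 1 and 4 were also those with the high B cell, T cell and lymph node stroma markers given above, and without them Itgal was called higher (log2 fold change 1.49, adjusted p = 7.13e-04). Leaving out library 1 or library 4 alone did not change the call. The part of these cells in the level of Itgal was not tested further.

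**Figure D3:**
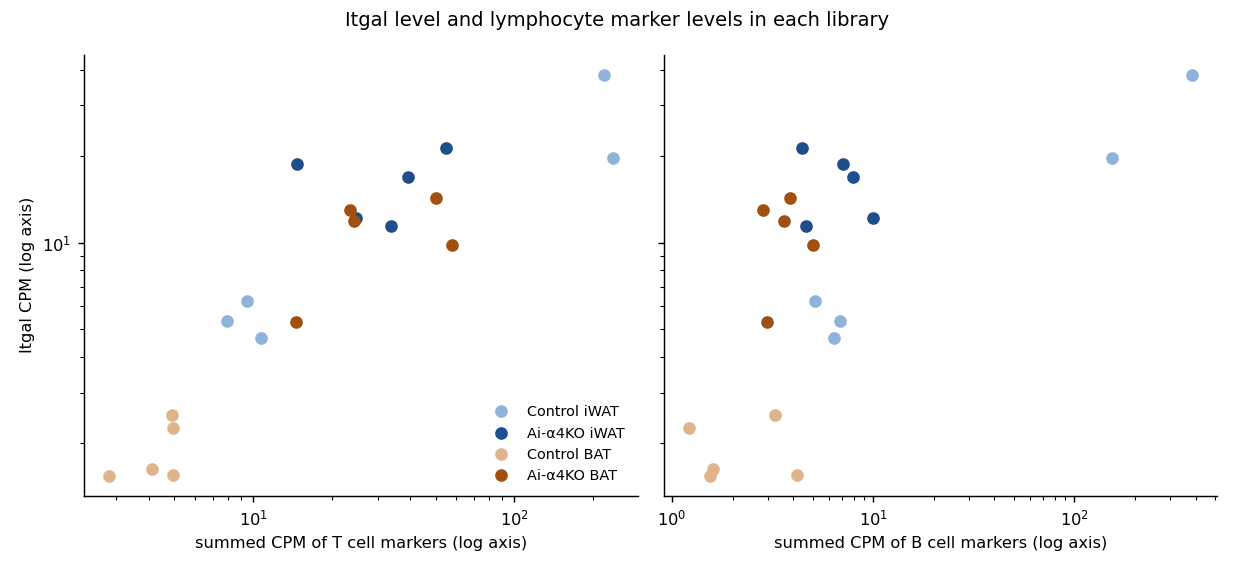
Itgal CPM (vertical log axis) against the summed CPM of 6 T cell markers (left) and 5 B cell markers (right, horizontal log axes) in each of the 20 libraries, coloured by group. Control iWAT 1 and 4 lie at the far right of both panels, with B cell sums of 385 and 154 CPM and Itgal at 38.4 and 19.6 CPM.

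Itga4, the integrin α4 chain of VLA-4 on monocytes and lymphocytes (chromosome 2, 79255426 to 79333114, forward), was higher in both mutant depots. It was at 31.6, 23.3, 17.9, 29.2 and 21.7 CPM in Control iWAT and 45.98, 51.9, 85.0, 80.6 and 92.3 CPM in Ai-α4KO iWAT, where libraries 1 and 2 were nearest to Control but still above it (2.86-fold, log2 fold change 1.51, standard error 0.22, adjusted p = 1.83e-04, edgeR). In BAT it was at 3.78, 7.12, 3.04, 8.25 and 4.82 CPM in Control and 39.4, 41.03, 38.5, 32.6 and 30.6 CPM in Ai-α4KO libraries. The groups were apart by 6.56-fold (log2 fold change 2.71, standard error 0.25, adjusted p = 2.23e-06, edgeR).

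Between genes, levels were compared per transcript length, as FPKM. In Control iWAT the medians ran, from high to low, through Itgam (18.2 FPKM), Itgb2 (17.0), Selplg (8.51), Vcam1 (6.87), Icam1 (3.33), Itga4 (2.18), Itgal (1.10), Selp (1.05) and Sele (0.2395). Neighbours in that order overlapped over the 5 libraries, except Selp (0.609 to 1.51 FPKM) above Sele (0.144 to 0.4996). The medians kept the same order in Ai-α4KO iWAT, from Itgam at 105 FPKM and Itgb2 at 82.8 down to Selp at 2.996 and Sele at 1.36. In Control BAT Vcam1 had the highest median, 3.32 FPKM (2.80 to 4.13), which overlapped with Itgb2 (2.04 to 4.81) and Itgam (1.41 to 4.04). In Ai-α4KO BAT Itgam (32.4 to 64.5 FPKM) and Itgb2 (33.2 to 47.8 FPKM) were highest and overlapped each other, Vcam1 (12.1 to 51.3 FPKM) overlapped with both, and Selplg was below Itgam and Itgb2 (11.3 to 19.6 FPKM).

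To compare the genes with the cells that bear them, each was divided within every library by a marker of those cells, the endothelial cadherin Cdh5 for the selectins and their immunoglobulin-family partners, and the leukocyte phosphatase Ptprc (CD45) for PSGL-1 and the integrins. Relative to Cdh5, Sele, Selp, Icam1 and Vcam1 were higher in Ai-α4KO than in Control tissue in both depots, and none of these 8 comparisons had overlapping groups. Relative to Ptprc, Itgal and Itga4 were lower in both depots, and Itgb2 did not pass the test in either. Cdh5 itself was lower in Ai-α4KO tissue, at 37.6 to 56.2 CPM against 92.4 to 126 in iWAT and 73.7 to 98.2 against 207 to 299 in BAT, while Ptprc was higher, at 242 to 433 against 49.5 to 150.0 CPM in iWAT and 131 to 209 against 10.5 to 21.6 in BAT. Ratios were compared by an exact permutation test, two-sided, over every arrangement of 5 against 5 libraries, with adjustment over 18 ratios and a threshold of 0.05. The smallest p it can give is 0.0079, or 0.013 after adjustment.

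The mean log2 ratio of Sele to Cdh5 rose from −6.98 ± 0.71 to −3.75 ± 0.98 in iWAT (SD, n = 5 each, exact adjusted p = 0.013) and by 3.49 in BAT with the same p. Cdh5 itself fell by 1.68 in BAT on the log2 scale, and Sele was at 1.62 (adjusted p = 0.0188, edgeR), which is under the 0.05 used for ratios but not the 0.01 used for calls. For Selp the log2 difference was 2.64 in iWAT and 5.02 in BAT, for Icam1 3.25 and 4.51, and for Vcam1 3.04 and 4.32 (all exact adjusted p = 0.013). Leukocytes, platelets and stromal cells can also make some of these 4 transcripts, so a ratio to Cdh5 is not a level per endothelial cell. On the leukocyte side Itgal fell by 1.53 against Ptprc in iWAT and by 1.27 in BAT on the log2 scale (exact adjusted p = 0.013 each, no overlap). Without Control iWAT 1 and 4 the iWAT difference was −1.003 (exact adjusted p = 0.0689). Itga4 fell by 0.63 in iWAT (exact adjusted p = 0.022) and by 0.89 in BAT (0.013), and Selplg fell by 0.71 in iWAT (0.022) and differed by −0.38 in BAT (0.105). The difference of Itgam was 0.38 in iWAT (0.446) and 0.45 in BAT (0.0408), a call that the loss of any single one of 7 BAT libraries ended. Itgb2 differed by 0.09 in iWAT and −0.13 in BAT (adjusted p = 0.802 and 0.538, exact permutation test).

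**Figure D4:**
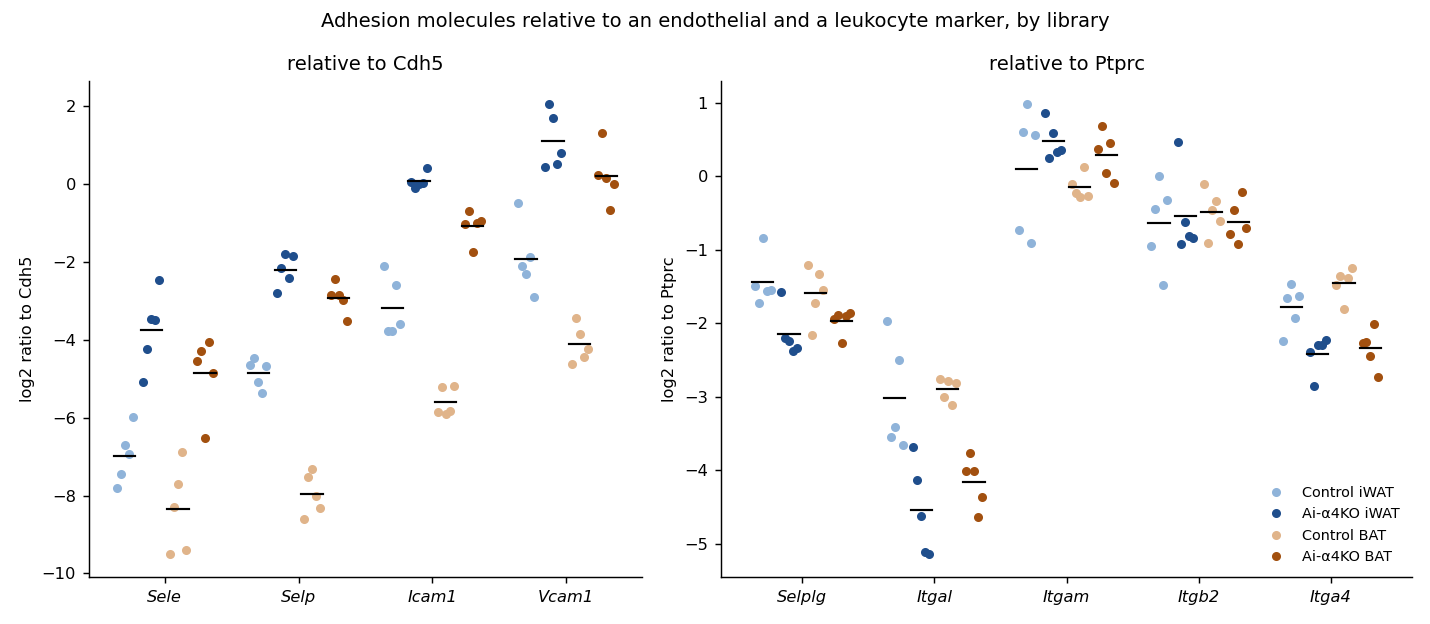
Log2 ratio of each gene to Cdh5 (left) or Ptprc (right) in every library, coloured by group, with the group mean as a bar. All Ai-α4KO points lie above the Control points of the same tissue on the left, whereas Itgal lies lower in Ai-α4KO libraries on the right, by 1.53 in iWAT and 1.27 in BAT.

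The α chains that can pair with β2 are αL (Itgal), αM (Itgam), αX (Itgax) and αD (Itgad), and their shares of the summed FPKM were compared as a description. Itgam made up most of the sum in every group, with medians of 88.3% in Control iWAT, 83.3% in Ai-α4KO iWAT, 77.0% in Control BAT and 79.2% in Ai-α4KO BAT. The share of Itgal was 7.79% to 12.2% in Control BAT and 2.05% to 4.26% in Ai-α4KO BAT, without overlap. In iWAT it was 3.75% to 25.7% in Control and 1.70% to 3.57% in Ai-α4KO libraries, also apart, with libraries 1 and 4 highest. Itgax, a chain of macrophages and dendritic cells, took 6.62% to 9.06% in Control iWAT and 12.4% to 15.6% in Ai-α4KO iWAT, whereas its BAT shares overlapped (6.31% to 18.5% and 12.2% to 24.7%). Itgad stayed below 1% in each of the 20 libraries. Of the β chains that pair with integrin α4, Itgb1 exceeded Itga4 in FPKM in all libraries, by a median ratio of 45.9 in Control iWAT, 18.2 in Ai-α4KO iWAT, 183 in Control BAT and 31.7 in Ai-α4KO BAT. The ratio of Itga4 to Itgb7, the other partner, was below 1 in all Control libraries (at most 0.746 in iWAT and 0.841 in BAT) and above 1 in all Ai-α4KO libraries (at least 1.25 and 1.197).

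**Figure D5:**
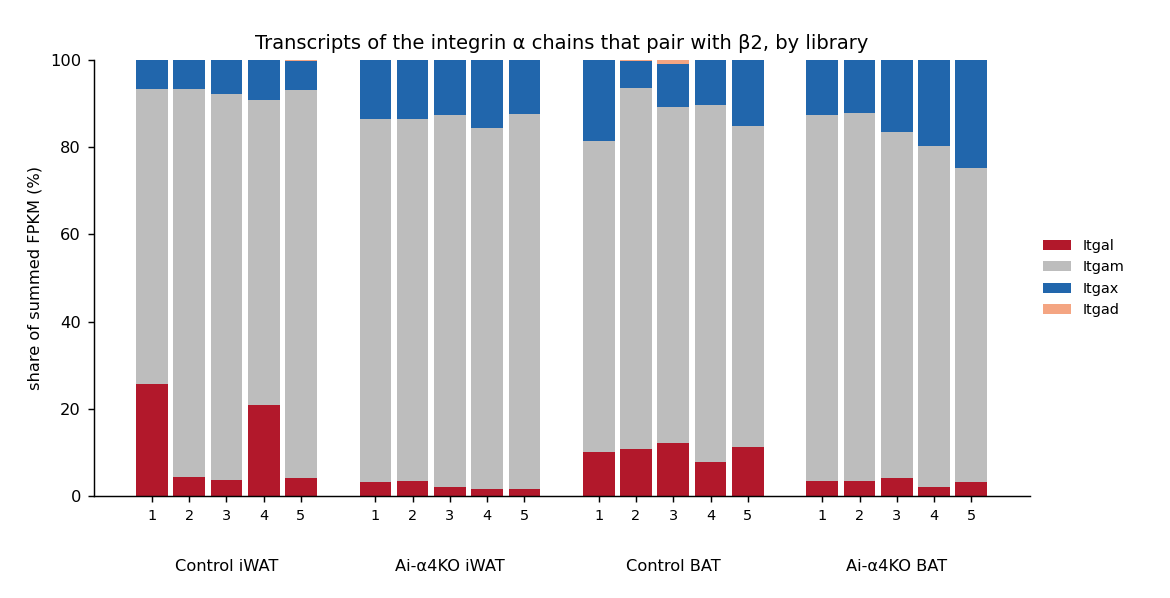
Share of the summed FPKM of Itgal, Itgam, Itgax and Itgad (stacked bars, percent) in each library, numbered 1 to 5 within the 4 groups. Itgam fills most of every bar, and the Itgal part at the base reached 25.7% in Control iWAT 1 and stayed at or under 4.26% in all Ai-α4KO libraries.

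The depots were then compared with each other within each genotype, on the same libraries as above. In Control mice 7 of the 9 genes were lower in BAT than in iWAT, where 14.7% of all genes were called lower: Selp (3.81-fold), Selplg (6.86-fold), Icam1 (2.47-fold), Itgal (7.99-fold), Itgam (7.02-fold), Itgb2 (5.44-fold) and Itga4 (4.69-fold). Of the markers of the cells that bear them, the leukocyte gene Ptprc was 6.40-fold lower in Control BAT (adjusted p = 5.62e-05) and the endothelial gene Cdh5 was 2.31-fold higher (adjusted p = 4.89e-05, edgeR). Without Control iWAT 1 and 4 the log2 difference of Itgal went from −2.998 to −1.53 and was still called, beside −2.96 for Itgam and −2.36 for Itgb2. The adjusted p of the 7 genes ran from 2.32e-05 to 0.00442 in the edgeR test. Vcam1 (log2 fold change −1.19, standard error 0.36, adjusted p = 0.0167) and Sele (log2 fold change 0.07, standard error 0.53, adjusted p = 0.922) did not pass. The Icam1 call was lost without Control iWAT 1 and 4 (log2 difference −0.73, adjusted p = 0.0194), without Control iWAT 1, and without any one of Control BAT 1, 2, 3 or 4. In Ai-α4KO mice 2 of 9 genes were called lower in BAT, Itgam (2.17-fold, log2 fold change −1.12, standard error 0.17, adjusted p = 6.80e-04) and Itgb2 (2.05-fold, log2 fold change −1.04, standard error 0.15, adjusted p = 6.46e-04), against 3.09% of all genes. Neither passed without Ai-α4KO BAT 3, 4 and 5, the libraries with the most muscle marker RNA (log2 differences −0.82 and −0.96, adjusted p = 0.03098 and 0.0421). The Itgb2 call was also lost without Ai-α4KO iWAT 1, at a log2 difference of −0.91, under 2-fold. Itga4 (−0.92, adjusted p = 0.00369) and Selplg (−0.76, adjusted p = 9.34e-04) were lower in BAT by less than 2-fold. Sele, Selp, Icam1, Vcam1 and Itgal had log2 differences between −0.53 and 0.08 and did not pass.

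Whether the genotype effect itself differed between depots was asked of the genotype by tissue term of one model over the 20 libraries. It passed an adjusted p of 0.01 for 4 of the 9 genes, against 4.86% of all genes, and each of the 4 had the larger effect in BAT. The log2 difference of the effects was 1.92 for Selp (standard error 0.33, adjusted p = 0.00117), 1.93 for Selplg (0.35, 0.00159), 1.61 for Itgam (0.34, 0.00516) and 1.32 for Itgb2 (0.29, 0.00652) in edgeR. These 4 genes were lower in Control BAT than in Control iWAT, as given above. Some leukocyte markers passed as well, with Ptprc at 1.63 (standard error 0.38, adjusted p = 0.00869, edgeR). Of the marker lists, 4 of 4 pan-leukocyte markers (median 2.18) and 4 of 7 macrophage markers (median 1.68) passed with the larger effect in BAT. Of the neutrophil markers 0 of 6 passed in either direction, with a median of 1.71, close to that of the macrophage markers. Of the T cell (4.38), B cell (4.37) and endothelial markers (−0.61), 0 of 6, 0 of 4 and 0 of 5 passed in either direction in edgeR. The T and B cell markers were high in Control iWAT 1 and 4, as given above, and their median log2 fold changes in iWAT were −2.20 and −3.94. The part of these markers in the members' difference was not tested. For Itgal (2.39, standard error 0.66, adjusted p = 0.0215), Itga4 (1.22, 0.34, 0.0231), Icam1 (0.93, 0.36, 0.0867), Vcam1 (0.95, 0.59, 0.279) and Sele (−0.44, 0.74, 0.720) a difference between depots was not shown by the edgeR test. Without Control iWAT 1 and 4 again 4 genes passed, and Itgal was at 1.05 (adjusted p = 0.0911). Without Ai-α4KO BAT 3, 4 and 5 it was 3, with Itgb2 lost (1.40, adjusted p = 0.0271). Leaving out Control BAT 1, 3 or 5 each left 2 genes, Selp and Selplg.

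Other genes of the adhesion cascade were counted in 5 lists, beside 11.3% of all genes called higher and 10.7% called lower in iWAT and 18.2% and 13.3% in BAT. Of the other selectins, ligands and mucins, 2 of 10 tested rose in iWAT and none fell, and 6 of 9 rose in BAT (median log2 fold change 0.17 and 1.46). Cd44, a hyaluronan receptor that also binds E-selectin, rose by 3.10 in iWAT and 4.34 in BAT on the log2 scale (adjusted p = 1.68e-06 and 3.14e-08), and Cd24a, a P-selectin ligand, by 1.97 and 2.62 (adjusted p = 0.00159 and 7.39e-05, edgeR). Leukosialin (Spn) and endoglycan (Podxl2) rose by 2.06 and 1.46 in BAT (adjusted p = 2.92e-06 and 0.00458), with 0.17 and −0.61 in iWAT (0.811 and 0.247, edgeR). Of the enzymes that build selectin ligands, 1 of 9 fell in iWAT and 1 of 8 rose in BAT (medians 0.01 and 0.10), which is near or below the shares over all genes. Gcnt1, which makes the core branch on which PSGL-1 carries its selectin-binding sugar, rose by 2.43 in BAT (adjusted p = 2.15e-06) and was at 0.70 in iWAT (0.0330, edgeR), and the sialyltransferase St3gal6 fell in iWAT (−1.77, adjusted p = 2.36e-05) and was at −0.04 in BAT (0.916, edgeR).

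The other immunoglobulin-family and junction molecules had negative medians, −0.73 in iWAT and −0.81 in BAT. Of 10 tested, 1 rose and 2 fell in iWAT, and 2 rose and 4 fell in BAT. Cd47, a widely expressed partner of SIRPα, rose in both (log2 fold change 1.33 and 1.58, adjusted p = 8.43e-06 and 3.91e-06, edgeR), and Alcam rose in BAT (2.32, 5.12e-06) with 0.38 in iWAT (0.132). The endothelial junction genes Jam2 and F11r fell in BAT (−1.49 and −1.37, adjusted p = 3.77e-06 and 3.21e-06, edgeR), and in iWAT were at −0.78 and −0.69, under 2-fold. Mcam fell in iWAT (−1.47, 2.64e-05) and was at −0.71 in BAT (0.00475). Icam2, the constitutive endothelial relative of Icam1, fell in both tissues (−1.04 and −1.08, adjusted p = 4.10e-04 and 5.69e-04, edgeR), the opposite direction to Icam1, and was singled out after its values were seen.

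Of the other integrin chains, 2 of 12 rose and 1 fell in iWAT, and 5 of 11 rose and 1 fell in BAT (medians 0.15 and 0.69), where the iWAT counts are near the shares of 11.3% and 10.7% over all genes. Itgax rose most, by 3.32 in iWAT and 4.57 in BAT on the log2 scale (adjusted p = 4.99e-08 and 1.50e-07, edgeR), beside 2.48 and 4.06 for Itgam. The fibronectin receptor chain Itga5 rose by 1.15 and 1.55 (adjusted p = 2.19e-04 and 5.54e-06), and the collagen receptor chain Itga1 fell by 2.15-fold and 3.25-fold (adjusted p = 7.34e-05 and 8.15e-08, edgeR). Itga9, whose product also binds VCAM-1, and Itgb7 rose in BAT (1.54 and 1.15, adjusted p = 1.42e-04 and 0.00627, edgeR). In iWAT they were at 0.60 and −1.23 and did not pass (0.0331 and 0.0737). Itgb7 was highest in Control iWAT 1 and 4, which were also the highest Control iWAT libraries for Itgal. Of the genes that regulate the affinity of integrins, a list that holds the inhibitors Cytip and Sharpin beside activators, 6 of 13 rose and 1 fell in each tissue (medians 1.06 and 1.54). Fyb (ADAP) rose by 1.86 and 3.82, the talin recruiter Apbb1ip (RIAM) by 1.76 and 3.57, the blood cell kindlin Fermt3 by 1.48 and 3.26, and Cytip, which binds cytohesin-1 and restrains LFA-1 adhesion, by 2.19 and 2.93 in iWAT and BAT (adjusted p at most 0.00179, edgeR). Rassf5 (RAPL) rose by 2.91 in BAT (5.15e-07) and was at 1.06 in iWAT (0.0191). The gene that fell in both was Rasgrp2, the exchange factor of Rap1 in platelets and leukocytes (−1.32 and −1.69, adjusted p = 0.00482 and 1.70e-05, edgeR), named after its values were seen.

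The genes with the profile most like each member were found by Pearson correlation of log2 CPM over the 20 libraries, as a description, since the libraries share the 4 groups, and the correlation after subtraction of group means is given beside it. For Selp they were Il13ra1 (r = 0.99, 0.84 after subtraction), C3ar1 (r = 0.98, 0.61 after subtraction) and Pam (r = 0.98, 0.67 after subtraction). For Icam1 they were Nfkbie (r = 0.98, 0.82 after subtraction), Scimp (r = 0.98, 0.75 after subtraction) and Tlr1 (r = 0.98, 0.73 after subtraction), and for Vcam1 Amica1 (r = 0.96, 0.86 after subtraction), Tmem206 (r = 0.95, 0.83 after subtraction) and Gpr171 (r = 0.95, 0.79 after subtraction). Itgam lay closest to Alox5ap (r = 0.995, 0.89 after subtraction), Cfp (r = 0.99, 0.84 after subtraction) and Ctsc (r = 0.99, 0.85 after subtraction), and Itgb2 to Capg (r = 0.99, 0.82 after subtraction), Cfp (r = 0.99, 0.79 after subtraction) and Spi1 (r = 0.99, 0.90 after subtraction), so that Cfp, the complement factor properdin, was near both chains of Mac-1. Selplg lay closest to Myo1g (r = 0.99, 0.92 after subtraction), Laptm5 (r = 0.99, 0.89 after subtraction) and Sash3 (r = 0.99, 0.89 after subtraction). Itga4 lay closest to Gm1966 (r = 0.99, 0.91 after subtraction), Sp140 (r = 0.99, 0.84 after subtraction) and Btk (r = 0.99, 0.87 after subtraction), and Itgal to B4galnt1 (r = 0.97, 0.90 after subtraction), Arhgap4 (r = 0.97, 0.90 after subtraction) and Akna (r = 0.96, 0.86 after subtraction). Sele had the weakest likenesses, Tbcel (r = 0.83, 0.64 after subtraction), Appl1 (r = 0.82, 0.63 after subtraction) and Gm5127 (r = 0.82, 0.49 after subtraction). Among the members themselves, Itgam and Itgb2 had the highest r (0.99, 0.67 after subtraction), and Sele and Itgal the lowest (0.34, −0.37 after subtraction). After subtraction of group means the highest was that of Selplg and Itgal (0.74), followed by Vcam1 and Itgal (0.68). Control iWAT 1 and 4 were the highest of their group for both Itgal and Selplg, and Control iWAT 1 for Vcam1. The part of these libraries in the correlations of Itgal was not tested.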

How the data were processed

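Whole iWAT and BAT of male mice were measured by stranded mRNA sequencing with paired reads of 150 bp, 5 libraries for each tissue and genotype. The submitters' processing notes name bcl2fastq 2, STAR 2.5.3a and mm10. The counting tool and annotation release are not given in the sources used here. The authors deposited an expected count per gene and library, an estimate that need not be whole and is not normalized (76.7% of nonzero values are whole within 1e-06). The authors also deposited FPKM, which is proportional to that count divided by transcript width within 1% in every gene with a value. Reads that paralogs share may be split among them by such estimates.

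Counts were rounded, filtered by filterByExpr, normalized by TMM and tested in R 4.3.3 with edgeR 4.0.16 (quasi-likelihood test, Benjamini-Hochberg adjustment over all genes tested). Each tissue and each genotype was fitted alone, and the interaction was fitted on all 20 libraries. A call needed at least a 2-fold change with adjusted p under 0.01, limits given in the study's Results text (a figure legend gives 0.05, which was an alternative), and the interaction the adjusted p alone. A prior count of 2 entered log2 values. Levels are CPM scaled by TMM over the 20 libraries, and precision follows from totals of 24023371 to 50384446 counts. Groups came from the labels, which do not say whether libraries are separate animals or whether both tissues came from the same mice. The p-values therefore compare groups against the spread between these libraries, which may differ from that between mice. The interaction test did not pair the tissues.

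Named were Igbp1, the 9 members, up to 5 called genes of each list with the largest change, and the 3 genes most like each member. Members and lists were chosen with earlier results of these data known. Alternatives were DESeq2 1.42.0, limma 3.58.1 on log2(FPKM + 1), library size without factors, scaling by the upper quartile, filters of none or 10 counts in each library, a threshold of 0.05, a replicate block, one fit of all libraries, each library left out, and Control iWAT 1 and 4 left out. For ratios they were the mean of the marker list and FPKM. Leaving out Ai-α4KO BAT 3, 4 and 5 was chosen after seeing the data. The edgeR, DESeq2 and limma fits were also run on simulated data, whose outcome is not reported here. Of 125 listed genes, Cd99 and Ly6g were not analysed here, 1 other is counted in its list but not reported here, and Adgre1 was matched by its synonym Emr1. Upstream sequences are RefSeq's for GRCm38.p6, and all 9 members lie on the same chromosome in the files and in GRCm38.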

Additional observations from a re-analysis of the deposited data

Results flagged for a closer look

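Ai-α4KO BAT 3 held 0.889 CPM of Sele, while the other 4 libraries of its group held 3.28 to 4.67 CPM. It was picked out because its gap to the nearest library on the log2 scale, relative to the range of the group, exceeded Dixon's 95% limit for 5 values. Of 36 groups of 5 examined, 1 was picked out, and chance does so in about 1 of 20. Without this library Sele passed the threshold in BAT (log2 fold change 1.85, adjusted p = 0.00688, edgeR).

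The genotype effect was larger in BAT than in iWAT by the interaction test for Selp (difference of log2 fold changes 1.92), Selplg (1.93), Itgam (1.61) and Itgb2 (1.32). The leukocyte marker Ptprc (1.63, adjusted p = 0.00869, edgeR), 4 of 4 pan-leukocyte and 4 of 7 macrophage markers (median 1.68) passed the same test in the same direction. Of the neutrophil (median 1.71, close to that of macrophage markers), T cell (4.38) and B cell markers (4.37), 0 of 6, 0 of 6 and 0 of 4 passed. The T and B cell markers were high in Control iWAT 1 and 4. The part of these markers was not tested. The 5 Ai-α4KO BAT libraries also held more skeletal muscle marker RNA than the Control BAT libraries, and Control iWAT 1 and 4 more lymph node marker RNA than the rest. Without Ai-α4KO BAT 3, 4 and 5, highest in muscle markers, Selp, Selplg and Itgam still passed (2.09, 2.05 and 1.90), and without Control iWAT 1 and 4 all 4 did (2.22, 1.62, 1.90 and 1.37).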

How the results depend on the processing

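No log2 fold change of a member that was called changed sign under any alternative. Of 963 log2 fold changes of members recomputed, called or not, 911 kept their side of the threshold, 32 lost it and 20 gained it. Uncalled values changed sign under some alternatives for Itgal in iWAT, Sele in the interaction, Sele between depots in Control, and Selp and Vcam1 between depots in Ai-α4KO. The number of members called higher stayed at 7 to 8 in iWAT and 8 to 9 in BAT with each library left out in turn, and the number lower in Control BAT at 6 to 8. The interaction was unstable. Its 740 genes became 2297 at an adjusted p below 0.05, 1654 with DESeq2, 480 without Control iWAT 1 and 4, 379 without Ai-α4KO BAT 3, 4 and 5, and 474 to 1019 with single libraries left out, and its 4 members became 2 with limma on log2(FPKM + 1) and 2 to 5 with single libraries left out. DESeq2 added Itga4 and Itgal to the interaction (adjusted p = 0.00263 and 0.00148) and called Sele in BAT (0.0028). The 1689 genes that differed between depots in Ai-α4KO mice fell to 339, and the 2 members among the lower ones to 0, without Ai-α4KO BAT 3, 4 and 5, where fewer libraries remained. With limma the genes called were 2838 in BAT (4524 with edgeR) and 1755 between depots in Control (3122), and Selp in iWAT was at 0.99, just under 2-fold. The cause of these moves was not tested beyond the libraries left out.

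Scaling moved the balance of calls over all genes. The DESeq2 and limma counts given beside it also change the test and the genes tested, so scaling alone cannot be separated in them. Library size without factors gave 1894 higher and 1267 lower genes in iWAT (1656 and 1559 with TMM), 3251 and 1265 in BAT (2614 and 1910), with medians over all genes of 0.13 and 0.23, and 604 and 115 in the interaction (496 and 244). Upper-quartile normalization turned the balance in iWAT the other way, with 1466 higher and 1813 lower, as did DESeq2 (1747 and 1881), and gave 626 and 147 in the interaction, and DESeq2 1274 and 380. Library size gave 740 and 2496 between depots in Control (1030 and 2092) and 1024 and 772 in Ai-α4KO (1235 and 454). limma gave 1378 and 772 in iWAT and 2033 and 805 in BAT.

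Replicate numbers did not pair the samples, since deviations of same-numbered libraries correlated between −0.45 and 0.13 in iWAT, −0.15 and 0.22 in BAT, and −0.27 and 0.24 between depots. With the replicate number as a block, the interaction had 262 genes and 2 members, Selp and Itgb2, and Vcam1 missed the threshold in iWAT (adjusted p = 0.0109). For the ratios a replicate block allows no p below 0.0625, so 0 of the 4 ratios to Cdh5 and 0 of the 3 to Ptprc passed in each tissue. With the mean of the marker list in place of Ptprc, Itga4 in iWAT (−0.40, exact adjusted p = 0.188) and Itgam in BAT (0.27, 0.188) no longer passed, and Selplg in BAT did (−0.55, 0.0238). Without Control iWAT 1 and 4 the Itgam ratio in iWAT was −0.24, against 0.38 with them, and neither passed. Depth limits Sele most, with 9 counts in 1 Control BAT library.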
